A study of Mus musculus with 5 samples.

Results

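The aminoacyl-tRNA synthetase genes of the cytosol and the mitochondrion were taken from the platform annotation by symbol, as every synthetase gene with a probe set that carries a single gene symbol, together with the scaffold genes Aimp1 and Aimp2. This gave 37 of the 18194 genes with such a probe set, measured by 75 probe sets. Of these 37 genes, 17 encode cytosolic enzymes or subunits, 16 encode mitochondrial enzymes (symbols ending in 2, apart from the scaffold gene Aimp2), and 2, Gars and Kars, serve both compartments. All 37 genes passed the filter on dim probe sets.

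Aminoacyl-tRNA synthetases attach each amino acid to its transfer RNA, the step that supplies charged tRNA to the ribosome. Separate nuclear genes serve the cytosol and the mitochondrion for most amino acids, and in the cytosol several of the enzymes are held in a multisynthetase complex by scaffold proteins. By the fold of their catalytic domain the enzymes form class I and class II, which bind ATP and the tRNA in different ways. Germinal centre B cells divide rapidly and make much protein, and c-Rel, an NF-kB subunit, is known for its part in the growth programme of activated B cells.

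For REL, 2 arrays measured eGFP+ germinal centre B cells of C57BL/6 mice with Cg1-Cre and loxP-flanked rel alleles (relfl/flCg1-Cre). For WT, 3 arrays measured eGFP− germinal centre B cells of littermates labelled WT with Cg1-Cre alone, so both groups carried Cre. In both groups the mice were 12 weeks old and the cells were sorted from the spleen 7 days after immunization with sheep red blood cells. Cg1-Cre is driven from the immunoglobulin gamma 1 constant region, which is transcribed once B cells are activated, and about 10 ng of RNA per sample was amplified before hybridization. Nothing in the labels ties an array to its own animal, and the p-values below rest on how far these samples spread, a spread that may be technical.

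Signals are MAS5 intensities on a linear scale, and differences are given as REL minus WT on the log2(signal + 16) scale, which understates the change of dim genes. The signal of Rel, the targeted gene, was 18.6 and 85.2 in REL, against 492, 134 and 206 in WT. The 11 markers of B cells and germinal centre B cells analysed had a summed signal of 65411 and 72049 in REL and 65790 to 80962 in WT. Bcl6, the transcription factor that defines the germinal centre B cell, had 9384 and 8731 in REL and 7619 to 10515 in WT. Of the 11, 9 were lower in REL, where 56.8% of all genes tested were. Rgs13 alone lay below every WT array (4514 and 3321 in REL, 4960 to 6058 in WT). Of 7 plasma cell markers, Sdc1 lay below every WT array (42.6 and 42.4 in REL, 125 to 455 in WT). Xbp1 (2469 and 2805 in REL, 1708 to 1985 in WT) and Edem1 (2118 and 2542 in REL, 1389 to 2037 in WT) lay above. Markers of macrophages, monocytes and neutrophils had a summed signal of 9313 and 7408 in REL and 1465 to 3604 in WT, with 14 of 20 higher on both REL arrays than on any WT array and 1, Adgre1, lower (120 and 116 in REL, 154 to 435 in WT). The neutrophil genes S100a8 (55.9 and 17.8 in REL, 41.6 to 301 in WT) and S100a9 (253 and 3.98 in REL, up to 789 in WT) were not among those higher in REL, and overlapped between the groups. Of these 20, 6 were dim on every WT array (below a signal of 23.1, the level of the filter). They were Vcam1, C1qa, C1qc, Mertk, Spic and Mrc1. Of 8 T cell markers, Cd3d, Cd4 and Cd28 were dim on all 5 arrays. Cd3e (18.3 and 4.63 in REL, 7.55 to 83.0 in WT) and Cd3g (14.4 and 7.02 in REL, 11.3 to 50.7 in WT) were dim on both REL arrays. The summed signal of the 8 was 6547 and 5372 in REL and 4892 to 5460 in WT, with no marker above or below every WT array. Cd2 was the brightest (5725 and 5088 in REL, 4396 to 5233 in WT) and gave most of that sum on every array. Cd247 had 630 and 168 in REL and 16.3 to 307 in WT. The part of these other cells in the synthetase values was not tested, and fewer cells of a type cannot be told apart from less RNA per cell.

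The comparison of REL with WT asked how the loss of c-Rel in germinal centre B cells was accompanied by differences in the genes that charge tRNA. Synthetase signals mostly lay lower in REL, with 27 of 37 genes below 0 and 10 above, where 56.8% of all 12082 genes tested lay below 0. The 18S ribosomal RNA probe sets, controls of RNA makeup, were higher on both REL arrays, with 1671 and 1984 in REL and 293 to 858 in WT at the 5′ end, 11953 and 13417 in REL and 8696 to 9822 in WT in the middle, and 1194 and 1098 in REL and 718 to 904 in WT at the 3′ end. Their part in the shift of the family was not tested. The median difference of the 37 genes was −0.33, against −0.07 for all genes tested, and the members ran from −2.37 (Lars2) to 0.62 (Sars2). By size, 13 genes lay under −0.5, where 19.0% of all genes did, and 3 over 0.5, where 13.0% did. In 12 of the 37 genes (32.4%) REL lay below every WT array on both arrays, against 14.3% of all genes tested, and in 1 gene (2.70%) both lay above, against 9.53%. No single synthetase gene passed the test. By limma with Benjamini-Hochberg adjustment over all genes 0 of the 37 were called, against 0.00828% of all genes, and before adjustment 8 were lower and 0 higher at p under 0.05, where 4.99% and 3.24% of all genes were. Centring each array on its median put all genes at 0.07 and the synthetases at −0.20, so that the distance between them stayed at −0.26, and left 7 genes with both REL arrays below every WT array, against 8.64% of all genes.

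**Figure D1:**
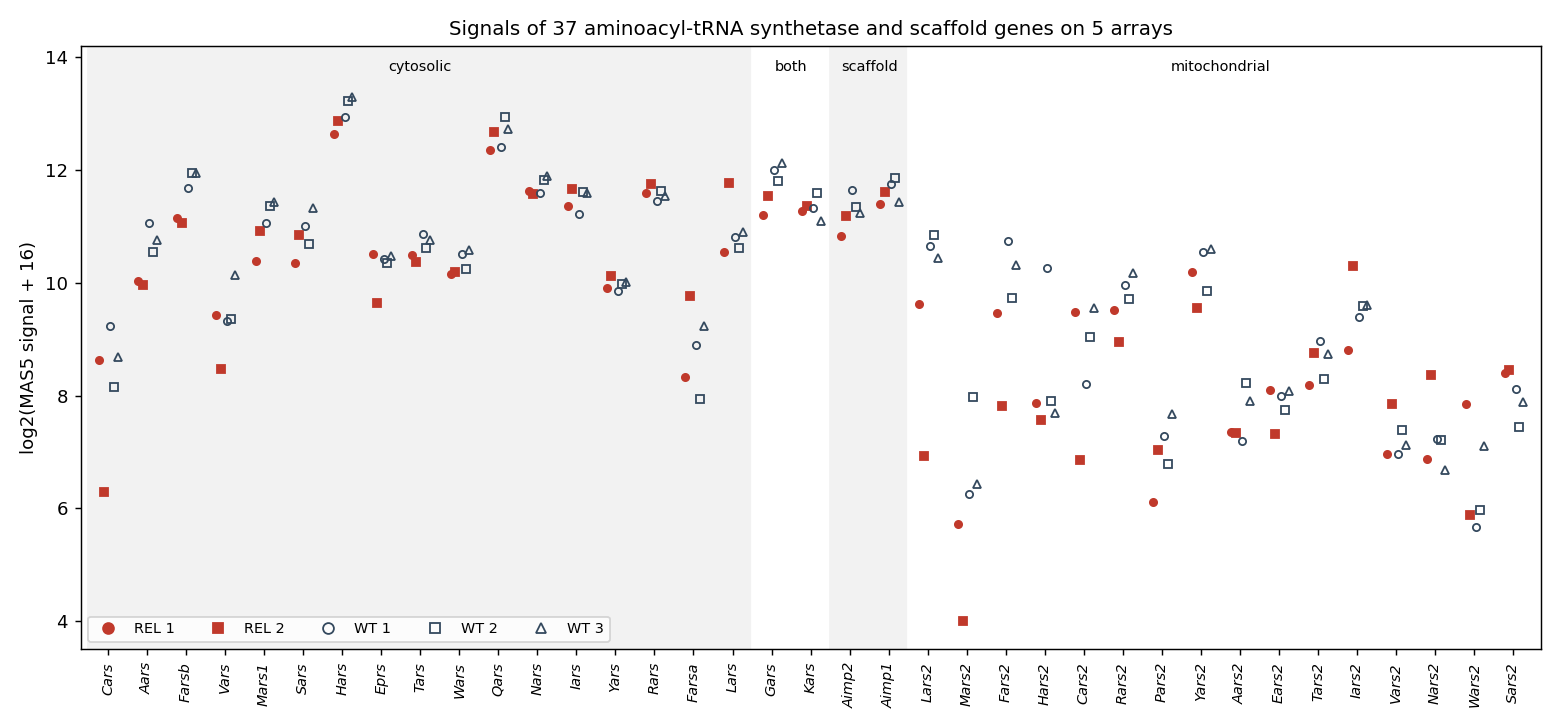
Signals of the 37 genes on each array, as log2(signal + 16), with REL arrays as filled red symbols and WT arrays as open dark symbols, 1 symbol per array and genes ordered within each class by their difference. Filled symbols lie under all open ones in 12 genes, among them Farsb, Gars and Hars, and above all of them in Sars2.

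Phenylalanyl-tRNA synthetase of the cytosol is built from an alpha subunit (Farsa) and a beta subunit (Farsb), and the differences of its genes lay on opposite sides of 0. Farsb had signals of 2268 and 2107 in REL and 3281, 3930 and 3912 in WT. The REL arrays both lay under the lowest WT array, at −0.75 (SE 0.20, 95% interval −1.20 to −0.30, limma adjusted p = 0.372), the smallest p of the family. The 4 Farsb probe sets gave −0.50 to −0.85. Farsa had 304 and 857 in REL and 461, 229 and 590 in WT, with REL replicate 1 inside the WT range and REL replicate 2 above it, at 0.35 (SE 0.59, 95% interval −0.96 to 1.67). The Farsa probe sets ran from 0.12 to 0.92, and the difference between the subunits was not tested.

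Among the other cytosolic enzymes, Aars, which charges alanine tRNA, had 1027 and 976 in REL and 2111, 1475 and 1708 in WT. That is a difference of −0.79 (SE 0.28, limma adjusted p = 0.482) with no overlap between the groups, and its other probe set gave −0.59. Mars1, the methionine enzyme on which both initiation and elongation depend, had 1325 and 1921 in REL and 2116, 2621 and 2763 in WT. Its groups did not overlap either, at −0.63 (SE 0.26, limma adjusted p = 0.56). Hars, the histidine enzyme, had 6368 and 7448 in REL and 7857, 9496 and 9996 in WT (−0.40, SE 0.16, adjusted p = 0.544), without overlap, while in its second probe set (−0.50) REL replicate 1 did not lie below WT.

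Tars and Wars, the threonine and tryptophan enzymes, showed smaller gaps. For Tars the signals were 1429 and 1305 in REL and 1850, 1546 and 1722 in WT (−0.31, SE 0.26). For Wars, a gene known to be induced by interferon gamma, they were 1125 and 1151 in REL and 1447, 1204 and 1513 in WT (−0.28, SE 0.28). The groups did not overlap in either gene, though in Wars the higher REL array came close to the lowest WT array. The 4 Wars probe sets gave −0.09 to −1.23, and those at −0.25 and −0.09 had groups that overlapped.

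On the probe sets used in the test, the remaining cytosolic genes had groups that overlapped. Cars, which charges cysteine tRNA, was at −1.22 (SE 0.72), with 383 and 62.6 in REL and 585, 270 and 395 in WT, so that REL replicate 2 alone lay below the WT range. Cars was at −2.39 without REL replicate 1 and at −0.05 without REL replicate 2. Vars was at −0.65 and Sars, for valine and serine, at −0.41. Qars (−0.17), Nars (−0.17), Iars (0.04), Yars (0.07), Rars (0.13) and Lars (0.37) completed the set, and the signal of Lars, given after its values were seen, 1483 and 3467 in REL and 1563 to 1907 in WT, lay below WT on REL replicate 1 and above it on replicate 2. Lars is also known as a leucine sensor upstream of mTORC1, in human cells.

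Eprs encodes a single protein with a glutamyl and a prolyl synthetase joined by linker repeats. Its brightest probe set had 1451 and 785 in REL and 1361, 1284 and 1410 in WT (−0.33, SE 0.33), with REL replicate 1 above WT and replicate 2 below. The other 2 Eprs probe sets that passed the filter gave 0.53 and 0.54, each with both REL arrays above every WT array. The mean of the 3 was 0.24.

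Gars and Kars each serve both compartments. Gars, the glycine enzyme, had 2354 and 2961 in REL and 4082, 3559 and 4463 in WT, and its REL arrays both lay below WT. The difference was −0.60 (SE 0.21, 95% interval −1.06 to −0.14, limma adjusted p = 0.458). Kars, the lysine enzyme and a part of the complex, had 2463 and 2606 in REL and 2538, 3087 and 2180 in WT. With REL inside the WT range it was at −0.02 (SE 0.23, 95% interval −0.53 to 0.49), and at 0.11 with median centring.

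**Figure D2:**
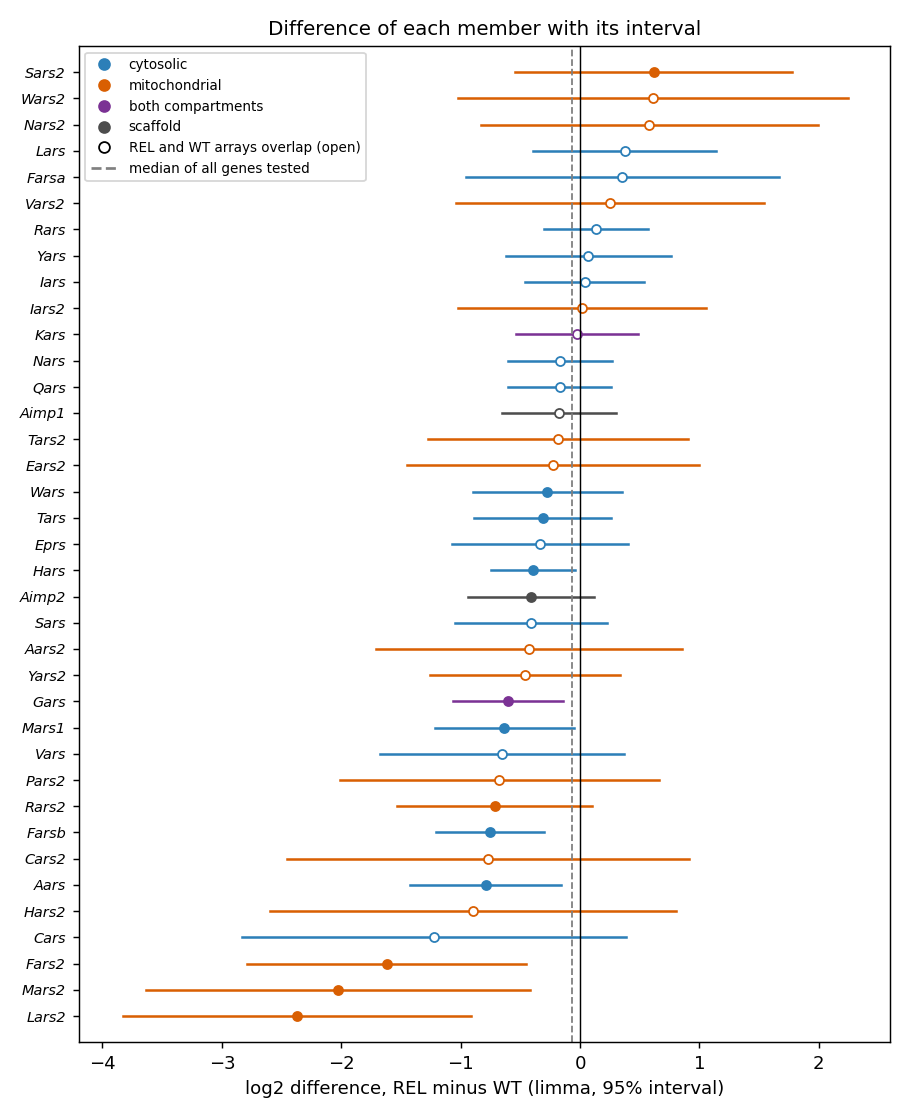
Difference of each of the 37 genes, REL minus WT on the log2 scale, with its 95% interval from limma, coloured by compartment and filled where the 2 REL arrays do not overlap the 3 WT arrays. The dashed line is the median of all genes tested (−0.07), and intervals of mitochondrial genes such as Hars2 and Wars2 are wider than those of Farsb or Gars.

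The scaffold gene Aimp2 had 1805 and 2299 in REL and 3189, 2591 and 2403 in WT. Both REL arrays lay below WT (−0.41, SE 0.24, limma adjusted p = 0.708). Its second probe set was at −0.49 with overlap, at 1135 and 1701 in REL and 2271, 1666 and 2002 in WT. Aimp1, which also gives rise to a secreted cytokine, had 2672 and 3120 in REL and 3423, 3687 and 2754 in WT, an overlap of the groups at −0.18 (SE 0.21). Eef1e1, the gene of another scaffold protein of the complex, named here after its values were seen, had 681 and 602 in REL and 324 to 738 in WT (0.22, SE 0.46).

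The complex members of the family were Eprs, Iars, Lars, Mars1, Qars, Rars, Kars, Aimp1 and Aimp2, and Eef1e1, outside the family, was not counted. Over these 9 genes the median was −0.17, with 6 lower and 2 (22.2%) below every WT array. That median was 0.13 with the probe sets of a gene averaged and −0.02 without REL replicate 1. Over the 12 cytosolic or dual enzymes outside it the median was −0.40, with 10 lower and 6 below every WT array, against 14.3% of all genes. By catalytic class, the 18 class I genes had a median of −0.25 (11 lower) and the 16 class II genes one of −0.40 (13 lower), with Eprs, which joins both classes, left out. Among the cytosolic enzymes alone the medians were −0.17 over 9 class I genes and −0.40 over 7 class II genes. Without REL replicate 1 the order of the classes turned, with −0.37 for class I and −0.25 for class II, and with probe sets averaged they stood at −0.36 and −0.37. These splits overlap, since Iars, Lars, Mars1, Qars and Rars of the complex are class I enzymes, and their differences were not tested.

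**Figure D3:**
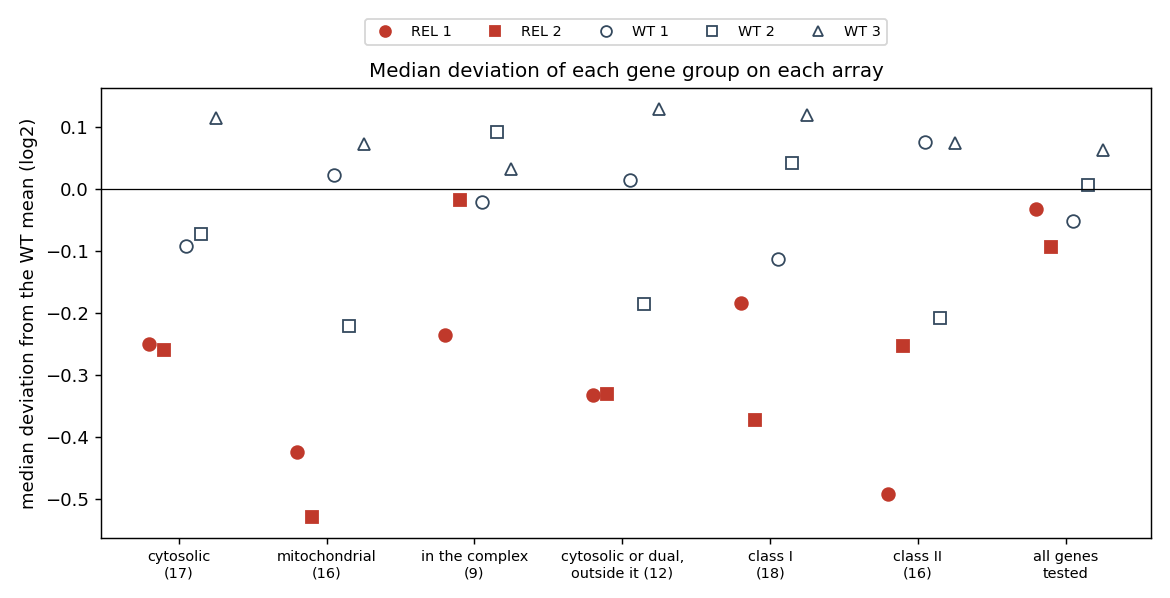
Median deviation from the mean of the 3 WT arrays, on the log2 scale, for each gene group on each array, with REL filled and WT open and the number of genes in brackets. Both REL arrays lie below every WT array in each synthetase group drawn except the complex members, where REL replicate 2 (−0.02) lies within the WT range, and over all genes tested REL replicate 1 (−0.03) does so too.

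Taken on each array, the 37 genes had a median deviation of −0.29 and −0.28 in REL and 0.01, −0.07 and 0.08 in WT. The mitochondrial genes stood at −0.42 and −0.53 in REL and 0.02, −0.22 and 0.07 in WT. The cytosolic genes stood at −0.25 and −0.26 in REL and −0.09, −0.07 and 0.11 in WT. Complex members had −0.23 and −0.02 in REL and −0.02, 0.09 and 0.03 in WT. All genes tested had −0.03 and −0.09 in REL and −0.05, 0.01 and 0.06 in WT, where the groups overlapped. The REL arrays lay further apart from one another in the complex members than in the family as a whole.

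The mitochondrial enzymes had the widest spread of the family. Their median was −0.44 over 16 genes, 11 lower and 5 higher, where 56.8% of all genes were lower. In 4 genes REL lay below every WT array, where 14.3% of all genes did, and in 1 above, where 9.53% did. The median was −0.28 without WT replicate 1 with probe sets kept, and −0.31 with median centring. Lars2, the mitochondrial leucine enzyme, had 773 and 106 in REL and 1602, 1818 and 1372 in WT. Both REL arrays lay below WT and far from one another, at −2.37 (SE 0.65, 95% interval −3.83 to −0.92, limma adjusted p = 0.38). Without REL replicate 1 Lars2 passed the test (−3.72, limma adjusted p = 0.0202), with REL replicate 2 as the lone array of its group and assumed to vary like the WT arrays. Without REL replicate 2 it did not (−1.02, limma adjusted p = 0.312), nor with probe sets averaged (−0.49, limma adjusted p = 0.925). The 2 dimmer Lars2 probe sets gave 0.14 and 0.77.

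Fars2, the mitochondrial phenylalanine enzyme, which works as a single chain, had 690 and 210 in REL and 1693, 834 and 1254 in WT. The groups did not overlap, at −1.62 (SE 0.52, limma adjusted p = 0.436). Its second probe set gave −0.44 with overlap, at 546 and 306 in REL and 534, 477 and 691 in WT. Fars2 was at −2.44 without REL replicate 1 and −0.80 without REL replicate 2. Mars2, for methionine, was dim, with 36.7 and 0.132 in REL and 60.8, 236 and 70.8 in WT. It was at −2.03 (SE 0.72), a size that depends on the added 16, and another Mars2 probe set gave 0.08. Single arrays moved it too, to −0.16 without WT replicate 2, where another probe set was chosen, and to −1.18 without REL replicate 2. Rars2, for arginine, had 721 and 480 in REL and 985, 822 and 1146 in WT, again without overlap (−0.71, SE 0.37).

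On the probe sets used in the test, Sars2, the mitochondrial serine enzyme, was the single member with both REL arrays above WT. Its signals were 324 and 336 in REL and 263, 159 and 219 in WT (0.62, SE 0.52, 95% interval −0.55 to 1.78, limma adjusted p = 0.815). Among the probe sets not used, some of Eprs, Iars, Farsa and Qars also had both REL arrays above WT. Others, of Aars, Farsb, Hars2 and Wars, had both below. On the probe sets used, the other mitochondrial genes overlapped between the groups. Hars2 was at −0.90, with 218 and 174 in REL and 1207, 223 and 192 in WT, where WT replicate 1 stood far above the other arrays. Without WT replicate 1 Hars2 was at −0.08 on this probe set, and at −2.33 with probe sets chosen anew. Its other probe set had 35.9 and 170 in REL and 195, 440 and 519 in WT (−1.92), with both REL arrays below WT. With probe sets averaged Hars2 was at −1.41. Cars2 (−0.77), Pars2 (−0.68), Yars2 (−0.46), Aars2 (−0.43), Ears2 (−0.23) and Tars2 (−0.19) lay below 0, and Iars2 (0.02, and −0.0650 with quantile normalization), Vars2 (0.25), Nars2 (0.58) and Wars2 (0.61) above it. Standard errors of these 10 genes ran from 0.36 (Yars2) to 0.75 (Cars2), and that of Hars2 was 0.76, against 0.19 to 0.34 for the complex members. The cytosolic genes Cars (0.72), Farsa (0.59) and Vars (0.46), outside the complex, lay within the mitochondrial range. Median standard errors were 0.58 over the mitochondrial and 0.28 over the cytosolic genes. The mitochondrial genes were also dimmer, with a mean level of 8.23 on the log2(signal + 16) scale, against 10.75 for the cytosolic genes and 11.35 for the complex members. The standard errors are drawn toward an intensity trend in the fit, so they depend on signal level by construction. The part of signal level in the spread of the mitochondrial differences was not tested.

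**Figure D4:**
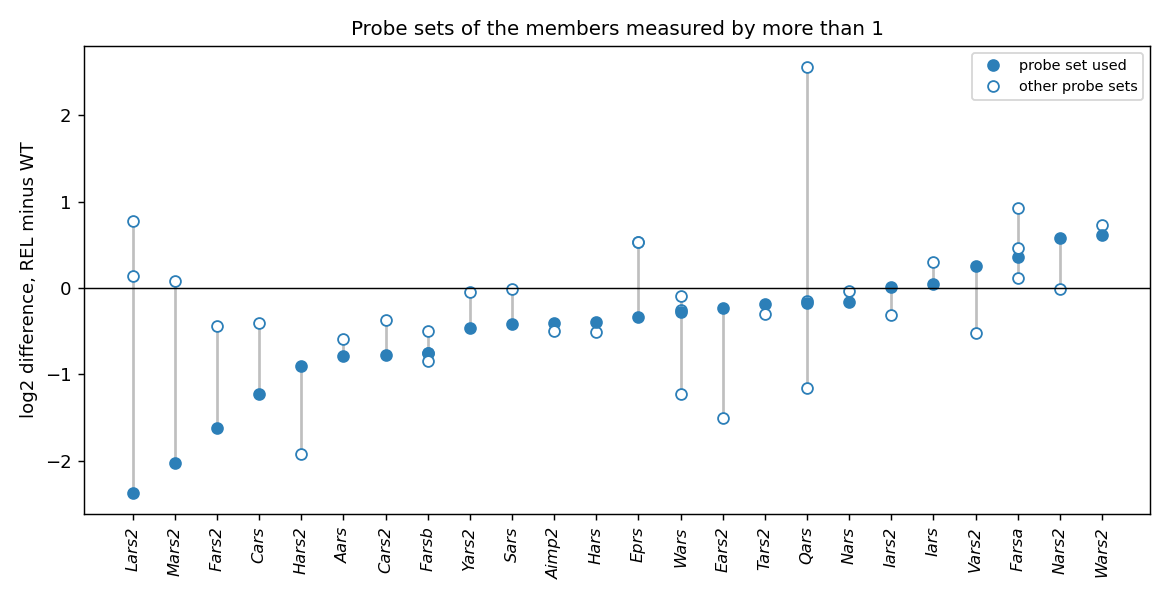
Difference of every probe set that passed the filter, REL minus WT on the log2 scale, for the 24 genes measured by more than 1, with the brightest (used in the test) filled. Probe sets share a direction in 17 genes, including Farsb and Aars, and lie on both sides of 0 in 7, including Lars2, Mars2 and Eprs.

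Probe sets of a gene bear on how far its value can be read. Of the 75 probe sets of the family 71 passed the filter, 50 of them lower and 21 higher in REL. Counted by gene, 56.8% of all genes tested lay lower, and probe sets of the same gene are not independent of one another. In 17 of the 24 genes with several such probe sets all shared a direction, and in Eprs, Iars2, Lars2, Mars2, Nars2, Qars and Vars2 they did not. Probe sets of Farsb, Aars, Hars, Aimp2, Fars2, Tars2 and Wars each stayed below 0.

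Promoter sequence was examined because synthetase genes are known targets of the amino acid response. When tRNA is left uncharged the kinase GCN2 (Eif2ak4) phosphorylates eIF2 alpha, ATF4 is translated, and ATF4 with C/EBP partners binds a composite element (CARE) in mammalian cells. RefSeq windows (GRCm38.p6) of 250 bases before to 50 bases after a start site were matched for 28 of the 37 genes. The letters searched on both strands were TGATGNAA for CARE, CACGTG for the E-box bound by MYC, and, for the kB motif of NF-kB, GGGA followed by any 3 bases and TCC. CARE letters were in 5 of the 28 genes (17.9%), against 4.51% of 27025 genes with a window, and E-box letters were in 5 (17.9%), against 8.09%. The kB letters were in 2 (7.14%), Lars2 and Iars, against 5.21%. CARE and E-box letters occurred together in Aars, Iars and Tars, and the matches do not overlap one another apart from the 2 kB matches of Iars, which share bases on opposite strands.

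The windows printed are those of Aars and Gars, with both REL arrays under WT, of Iars and Yars, whose arrays overlapped, to set CARE letters in both kinds of gene side by side, and of Lars2, which has kB letters. Capitals mark CARE, E-box and kB letters, and positions count from the start site, negative before it.
Aars (chr8:111033592-111033891, plus strand): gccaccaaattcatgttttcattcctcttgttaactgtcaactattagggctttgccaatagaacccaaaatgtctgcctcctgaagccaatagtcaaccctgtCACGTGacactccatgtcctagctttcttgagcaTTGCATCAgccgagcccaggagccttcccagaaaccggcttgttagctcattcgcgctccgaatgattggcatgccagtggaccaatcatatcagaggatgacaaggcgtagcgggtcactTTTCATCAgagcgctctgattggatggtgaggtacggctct
Gars (chr6:55037751-55038050, plus strand): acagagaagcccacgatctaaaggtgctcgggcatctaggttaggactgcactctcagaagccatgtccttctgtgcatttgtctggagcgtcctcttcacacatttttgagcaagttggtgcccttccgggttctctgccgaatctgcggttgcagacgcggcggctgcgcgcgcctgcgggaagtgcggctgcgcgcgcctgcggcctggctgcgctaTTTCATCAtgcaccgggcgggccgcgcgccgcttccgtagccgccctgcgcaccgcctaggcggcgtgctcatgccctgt
Iars (chr13:49681880-49682179, plus strand): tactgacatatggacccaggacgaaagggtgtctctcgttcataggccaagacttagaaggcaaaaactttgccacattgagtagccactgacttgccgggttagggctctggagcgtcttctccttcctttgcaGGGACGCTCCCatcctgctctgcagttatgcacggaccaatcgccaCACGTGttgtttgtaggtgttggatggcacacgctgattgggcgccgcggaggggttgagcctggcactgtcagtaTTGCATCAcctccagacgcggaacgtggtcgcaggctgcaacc
Yars (chr4:129189653-129189952, plus strand): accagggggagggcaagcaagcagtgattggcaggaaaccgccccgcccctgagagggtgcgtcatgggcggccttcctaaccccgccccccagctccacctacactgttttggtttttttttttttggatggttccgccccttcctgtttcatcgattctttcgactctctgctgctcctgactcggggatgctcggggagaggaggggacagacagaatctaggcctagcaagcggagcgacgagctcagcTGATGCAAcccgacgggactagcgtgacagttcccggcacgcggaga
Lars2 (chr9:123366677-123366976, plus strand): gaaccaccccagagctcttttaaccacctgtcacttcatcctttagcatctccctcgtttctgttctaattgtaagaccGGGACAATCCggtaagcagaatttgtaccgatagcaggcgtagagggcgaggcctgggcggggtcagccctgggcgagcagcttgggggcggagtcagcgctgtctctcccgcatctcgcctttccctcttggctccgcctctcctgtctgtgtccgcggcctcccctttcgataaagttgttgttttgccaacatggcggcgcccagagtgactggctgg
In Aars the CARE letters begin at positions −112 and 10 and the E-box at −146. CARE letters begin at −30 in Gars, at 8 in Iars and at 4 in Yars, and the kB letters of Lars2 at −171. CARE letters were thus held by 3 of the 10 genes with a window whose REL arrays lay below WT (Aars, Gars and Tars) and by 2 of the 17 whose arrays overlapped, a count with no test, and letters alone do not show a bound site.

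Amino acid response genes lay on both sides of 0, with the median of all genes tested. Of 34 listed genes 30 were tested, 18 lower and 12 higher, with a median of −0.07. In 7 both REL arrays lay below WT (23.3%, against 14.3% of all genes) and in 5 above (16.7%, against 9.53%). By limma 0 were called, with 2 lower and 3 higher at p under 0.05 before adjustment, where 4.99% and 3.24% of all genes were. Phgdh, the first enzyme of serine synthesis, had 2842 and 4155 in REL and 5462, 5676 and 6063 in WT (−0.73, SE 0.20, limma adjusted p = 0.372). Eif4ebp1, which encodes a repressor of cap-dependent translation, had 389 and 398 in REL and 888, 650 and 1135 in WT (−1.11, SE 0.40). Both genes lay below WT on both REL arrays. With probe sets averaged Eif4ebp1 was at −0.56, and without REL replicate 1 Phgdh was at −0.46.

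On the other side lay a pair of kinases that phosphorylate eIF2 alpha. Eif2ak1, the haem-regulated kinase, had 3116 and 2774 in REL and 1692, 1623 and 2046 in WT (0.72, SE 0.23, limma adjusted p = 0.436). Eif2ak3, the kinase PERK of the endoplasmic reticulum, had 2851 and 2776 in REL and 1987, 1705 and 1586 in WT (0.68, SE 0.23, limma adjusted p = 0.458). Neither overlapped between the groups, but with probe sets averaged Eif2ak1 was at 0.13 (limma adjusted p = 0.971) and Eif2ak3 at 0.39 (limma adjusted p = 0.897). Eif2ak4 and Atf4, named here after their values were seen, were at 0.71 (SE 0.48, groups overlapping) and 0.15 (SE 0.16), and the Atf4 signal of 5133 and 5244 in REL lay above the 4274, 4924 and 4805 of WT.

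Genes that act around tRNA charging also showed no common direction. Of 22 listed relatives and accessory genes 21 were tested, 13 lower and 8 higher, with a median of −0.06. In 3 of them REL lay below WT (14.3%) and in 2 above (9.52%), near the shares of all genes, and 0 passed by limma at an adjusted p, or at an unadjusted p under 0.05. Tufm, the mitochondrial elongation factor that carries charged tRNA to the ribosome, had 1481 and 1686 in REL and 2175, 2038 and 2260 in WT (−0.44, SE 0.23), and was at −0.18 with probe sets averaged. Its exchange factor Tsfm lay on the other side, with 327 and 443 in REL and 175, 138 and 196 in WT (1.11, SE 0.53). Trnt1, which adds the CCA end to tRNAs, was at −0.51 (SE 0.27), and Mtfmt, which formylates the mitochondrial initiator tRNA, at 0.67 (SE 0.39), and in each the groups did not overlap. With probe sets averaged Mtfmt was at −0.0328, and without REL replicate 2 Trnt1 was at −0.23.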

How the data were processed

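RNA from sorted germinal centre B cells was amplified, labelled with biotin and hybridized to 1 single-colour Affymetrix array per sample (2 REL, 3 WT), per the labels' protocols. The authors deposited MAS5 signal intensity values for 45101 probe sets, with MAS5 taken from the submitters' processing notes, which give no version. Every array has a 2% trimmed mean of 500. MAS5 subtracts mismatch probes on each array alone, so dim probe sets scatter more than bright ones after the log. Detection calls were not used, and the number of arrays limits the precision.

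Groups came from the sample titles. Probe sets with 1 symbol (34958; 932 had several and 9211 none listed) were named from the platform annotation, and all 37 members matched RefSeq by Entrez identifier. Values were log2(signal + 16), with no further normalization. Probe sets in the lowest 40% by mean log2 value (signal under 23.1) were dropped and each gene was represented by its brightest one, leaving 12082 genes. They were tested with limma 3.58.1 under R 4.3.3 (linear model, empirical Bayes with an intensity trend, 3 residual and 6.84 prior degrees of freedom, two-sided) at a Benjamini-Hochberg adjusted p under 0.05. The code was tested on simulated data. Python 3.11.15 with pandas 2.3.3, numpy 2.4.6 and matplotlib 3.10.9 made tables, motif searches and plots. Intervals are 95% intervals of the fit.

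The members and lists were chosen with earlier results of these data known, so lists are described by counts and medians with no test. Members were named in full where their REL arrays lay all below or all above WT, and for Farsa, Farsb, Gars, Kars, Eprs, Aimp1 and Aimp2, and the 2 lowest and 2 highest of the rest were named. Other lists are represented by up to 4 genes with the smallest p. Alternatives changed the pseudocount (1, 64), the filter (none, 60%), the scaling (quantile, array medians centred), the probe sets per gene (averaged), the moderation (no trend), the replicate number as a block, and each array left out, with probe sets chosen anew or kept.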

Additional observations from a re-analysis of the deposited data

How the results depend on the processing

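Over the 19 alternatives 22 of the 37 genes kept their direction, 20 of them lower and 2 higher (Rars and Sars2), and no synthetase gene was called under any alternative except Lars2 without REL replicate 1 (adjusted p = 0.0202, and 0.0241 with probe sets kept; −3.72). The 19 are not separate checks of direction. The filter and trend alternatives left the differences of the genes tested as they were, so they could turn none. The replicate block gave the same differences as leaving out WT replicate 3 with probe sets kept. Each array left out was also counted both with probe sets chosen anew and with probe sets kept. The median of the family moved to −0.20 with median centring, where its distance from all genes was unchanged, and ran from −0.37 to −0.28 with an array left out. Genes with both REL arrays below every WT array were 7 with median centring and 14 to 20 with an array left out, where a group of fewer arrays overlaps less often (17.5% to 34.7% of all genes).

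Over all genes, where 1 was called (Vcam1), 0 were with a pseudocount of 1 or 64, either other filter, averaged probe sets or no trend (777 to 1230 at an unadjusted p under 0.05), 1 with median centring, 2 with quantile normalization, and 0 to 8 with an array left out. With the replicate number as a block 18 were called, on 1 residual degree of freedom, and the family's median was −0.30. Same-numbered samples deviated from their group means with correlations of −0.04 and −0.02 across genes. With 2 REL arrays their deviations mirror one another, so both correlations rest on a single difference between the REL arrays. They cannot decide whether same-numbered samples were paired.

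Some directions turned. With a pseudocount of 1 Mars2 was at 0.12, where another of its probe sets was the brightest and was used. Quantile normalization turned Iars2 (−0.0650), and median centring turned Kars (0.11). Averaged probe sets turned Eprs (0.24), Iars2 (−0.15), Qars (0.27), Vars2 (−0.13) and Mtfmt (−0.0328). A replicate block turned Eef1e1 (−0.14). Over the fits with an array left out, the genes that turned ran over these values: Cars2 −2.09 to 0.54, Ears2 −0.62 to 0.17, Eprs −0.77 to 0.10, Farsa −0.37 to 1.078, Iars −0.11 to 0.19, Iars2 −0.73 to 0.76, Kars −0.14 to 0.11, Lars −0.23 to 0.98, Nars2 −0.16 to 1.32, Tars2 −0.47 to 0.10, Vars2 −0.47 to 0.70, Wars2 −0.38 to 1.60, Yars −0.0401 to 0.18 and Eef1e1 −0.14 to 0.43. Leaving out WT replicate 1 turned Iars (−0.0862) and Iars2 (−0.0479). Leaving out WT replicate 2 turned Farsa (−0.0233) and Kars (0.11). Leaving out WT replicate 3 turned Eef1e1 (−0.14). Leaving out REL replicate 1 turned Kars (0.0169), Tars2 (0.10) and Wars2 (−0.38). Leaving out REL replicate 2 turned Cars2 (0.54), Ears2 (0.17), Eprs (0.10), Farsa (−0.37), Iars (−0.11), Iars2 (−0.73), Lars (−0.23), Nars2 (−0.16), Vars2 (−0.47 or −0.19) and Yars (−0.0401). Beyond the other probe sets and fewer arrays named, the cause was not tested. The filter at 60% removed Mars2 and Wars2. Values that kept their direction still moved by over 1.5 times, in 22 of the 37 genes without REL replicate 1, 15 without REL replicate 2, 7 to 11 without a WT array, 14 with median centring, 12 with probe sets averaged and 11 with the replicate block.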

Other observations

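One dim Qars probe set, not used in the comparison and singled out after its values were seen, had signals of 1274 and 210 in REL and 79.8, 46.1 and 114 in WT, a difference of 2.56 on the log2(signal + 16) scale. The brightest Qars probe set had 5248 and 6500 in REL and 5400, 7848 and 6728 in WT.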
